A study of Prunus dulcis and Prunus persica and Prunus persica x Prunus dulcis with 15 samples.

Results

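The methylation of transposable elements (TEs) was compared between the leaves of almond and of peach, each species over the TEs annotated in its own genome. The members were the TEs with a methylation level in their own parent in at least 1 cytosine context, 24072 of 35676 almond TEs and 23267 of 33879 peach TEs, or 47339 of 69555 in all. They were taken in 3 classes by their annotated name. LTR retrotransposons were the TEs whose name holds that word, miniature inverted-repeat transposable elements (MITEs) were those with a numbered family name, and the third class held the rest. Levels were compared within the same class and the same length bin, since neither genome lists the same TEs as the other.

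The study asked how the crossing of almond and peach bears on the methylation and transcription of TEs. Whole genome bisulphite sequencing was made on DNA of fully expanded leaves that were taken from watered field trees in late September. The groups were almond (Prunus dulcis) of the cultivar Texas, peach (Prunus persica) of the cultivar Early Gold, and an F1 hybrid of almond and peach, with 2 libraries each. No treatment or transgene was used, and each species was a single cultivar, so the species and the cultivar cannot be told apart. The files hold 1 percentage for each TE, context and genotype, with both libraries of a genotype joined. There is thus no spread between replicates against which a difference could be set, the depth behind each percentage is unknown, and no test was made. An SD is given over TEs or over pairs of TEs, which are not replicates of a species.

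Plants methylate cytosines that stand before G (CG), those followed by another base and then G (CHG), and those with no G at either of these places (CHH). In Arabidopsis, CG methylation is copied after replication by the maintenance methyltransferase MET1, and CHG methylation is kept by CMT3, which is recruited by a repressive histone mark. CHH methylation has to be set anew, by CMT2 in the bodies of long TEs and by the small RNA-directed pathway (RdDM) at short TEs and TE edges, so that it is known to depend on the length and the position of a TE. LTR retrotransposons copy themselves through RNA and carry long terminal repeats, while MITEs are short DNA elements without a transposase of their own that often lie near genes.

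With class and length held alike, mean levels of peach exceeded those of almond, by 1.92 percentage points for CG, 2.80 for CHG and 1.63 for CHH. In CG and in CHG the mean was higher in peach in 13 of the 14 cells of class and length that held at least 30 TEs of each genome. For CHH this was so in 11 of the 14 cells. Holding class and length alike moved the CHH difference most, since it was 0.84 points without it, and the CG and CHG differences of 2.03 and 2.73 points least. On single chromosomes, with class and length held alike, the difference was above 0 on 8 of 8 chromosomes in each context. It ranged from 1.32 to 3.83 points in CG, from 1.89 to 4.22 in CHG and from 0.826 to 1.77 in CHH. The plain difference in CHH was above 0 on 5 of the 8 chromosomes.

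**Figure D1:**
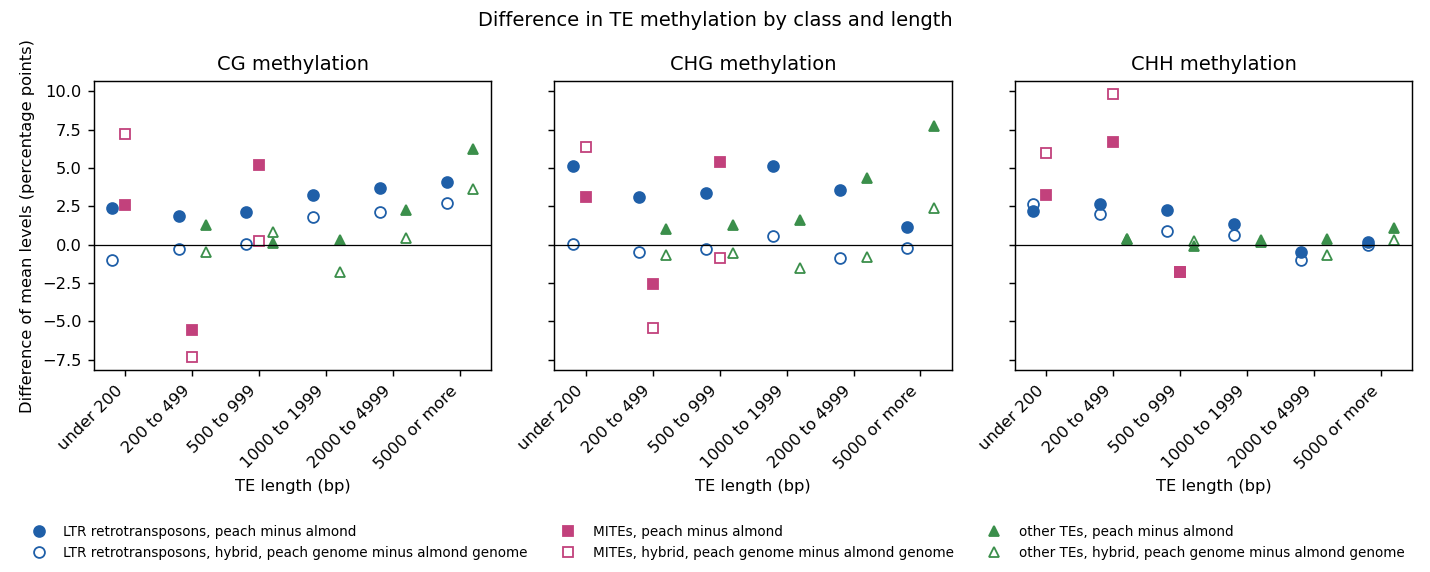
Mean methylation of peach TEs minus mean methylation of almond TEs (filled symbols, percentage points) by TE length (bp), class and context, and the same difference for the hybrid between the peach and almond genomes (open symbols). Open symbols of MITEs under 200 bp rest on 20 to 26 hybrid values on the almond genome. They are left out of the hybrid differences with class and length held alike. Filled symbols of LTR retrotransposons lie above 0 in each length bin in CG and CHG, while for MITEs of 200 to 500 bp they lie at −5.59 in CG and 6.69 in CHH.

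The hybrid was measured on both lists of TEs with the DNA of a single genotype, with all reads aligned to the almond genome and again to the peach genome. Its level on the peach genome minus that on the almond genome was 0.528 points for CG, −0.730 for CHG and 1.11 for CHH. They rest on 13 cells, as MITEs under 200 bp had fewer than 30 hybrid values on the almond genome. In those cells the parental differences were 1.92, 2.80 and 1.62 points. The study relaxed its alignment limit so that hybrid reads of either parental origin could map to each genome. A hybrid level can thus join reads of both parental copies, and hybrid differences need not be those between almond and peach copies. The part of this in the hybrid differences was not tested. How far the lists of TEs, the alignment and the species each enter the parental differences was not tested. The study measured the conversion of unmethylated cytosines on chloroplast DNA and found it slightly lower for almond than for peach, and the part of this in the differences was not tested either.

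Among LTR retrotransposons, the most numerous class, the differences with length held alike were 3.09 points for CG, 3.35 for CHG and 1.05 for CHH. From 200 bp upward the CG difference widened with length, from 1.85 points at 200 to 500 bp to 4.08 points at 5000 bp or more. At 5000 bp or more the mean CG level was 89.2% ± 12.7 (SD, 1849 TEs) in almond and 93.2% ± 11 (SD, 2386 TEs) in peach. The hybrid difference in CG also widened with length, from −0.991 points under 200 bp to 2.69 points at 5000 bp or more. In CHG the parental difference was 5.11 points under 200 bp and 5.15 points at 1000 to 2000 bp, where the means were 62.6% ± 19.2 (SD, 1764 TEs) in almond and 67.7% ± 18.5 (SD, 1679 TEs) in peach. At 5000 bp or more it was 1.17 points. In CHH the difference lay between 1.37 and 2.68 points in each bin under 2000 bp, was −0.476 points at 2000 to 5000 bp and 0.188 points beyond.

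The genomes differed widely in the share of TEs over 95% in CG, a limit that lay between their medians. Of the TEs with a CG level, 29.3% in almond and 66.6% in peach had a level over 95%, while the shares over 80% were 90.3% and 91.1%. The median CG level was 93.4% in almond and 96.1% in peach, and the 90th percentile was 96.9% and 98.0%. Among LTR retrotransposons of 5000 bp or more, 12.0% in almond and 72.0% in peach were over 95%. At the low end the genomes were close, with 2.16% of almond TEs and 2.42% of peach TEs at a CG level of 20% or less.

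**Figure D2:**
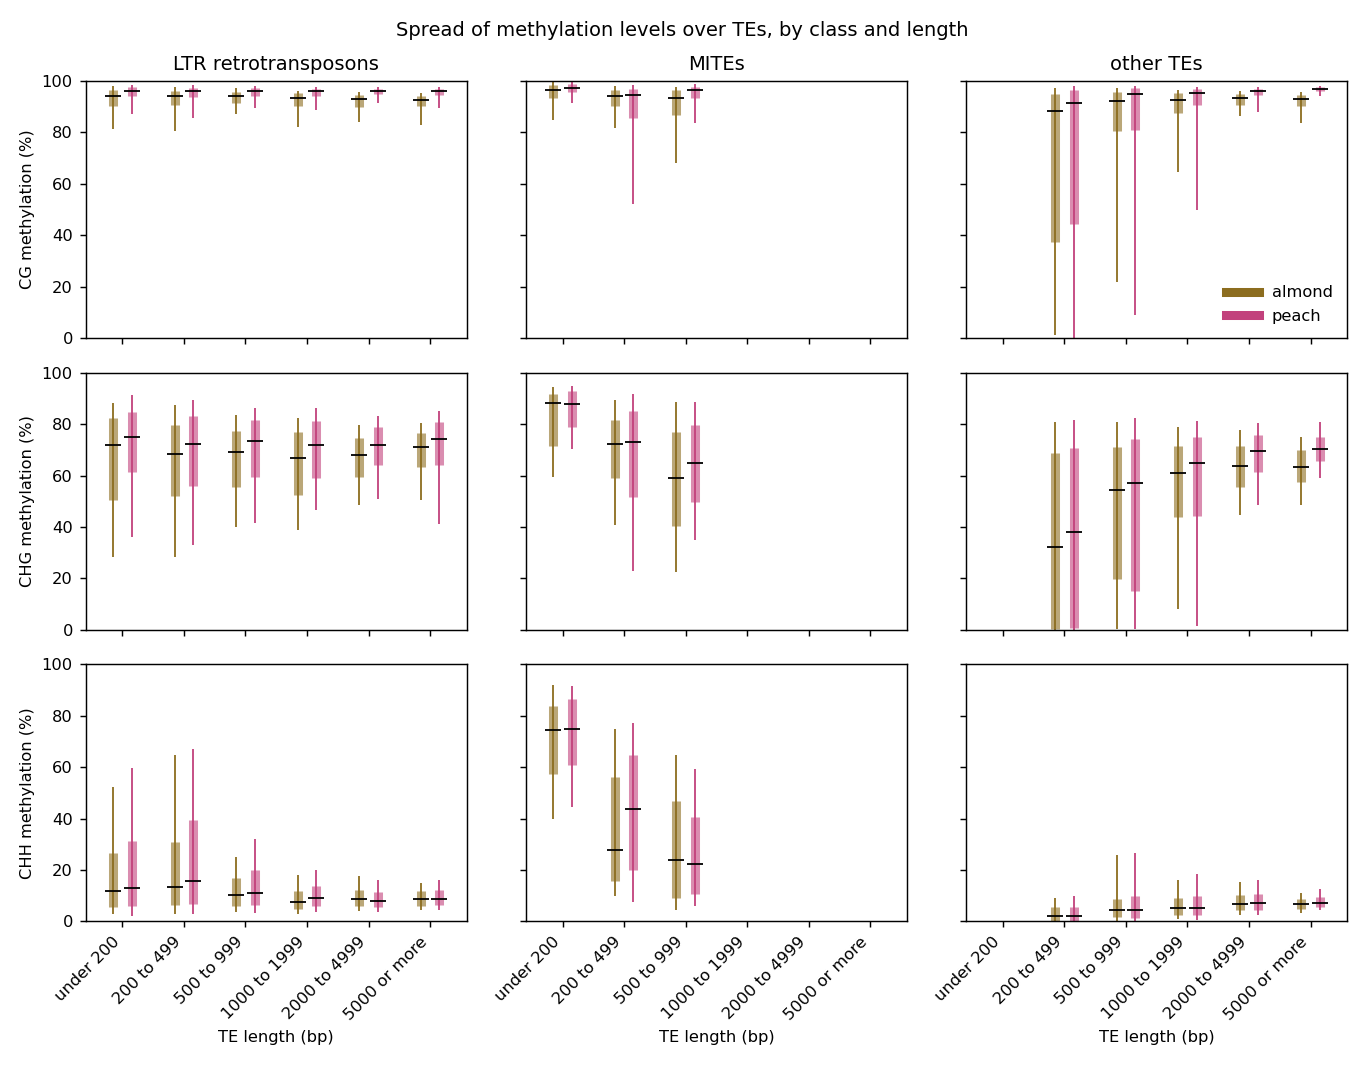
Methylation level (%) of almond and peach TEs by class, context and length bin (bp). Thick bars span the quartiles, thin lines the 10th to 90th percentile and black ticks mark the median. For LTR retrotransposons of 5000 bp or more the medians in CG are 92.7% in almond and 96.2% in peach, while the third class of 200 to 500 bp spans nearly the whole range in both genomes.

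Taken over the TEs with a level in the 3 contexts at once, both CG and CHG were over 80% in 14.7% of the 21274 almond TEs and in 23.9% of the 20760 peach TEs. For LTR retrotransposons these shares were 14.7% and 27.2%. The peach LTR retrotransposons in this state were longer, with a median of 1590.5 bp against 905 bp in almond. TEs methylated in CG alone, with CG over 80% and CHG at 20% or less, made up 1.88% in almond and 2.31% in peach. Of all TEs with a level in the 3 contexts, 5.26% in almond but 7.43% in peach exceeded 50% in CHH. TEs with CHH over 20% but CG at 20% or less were rare in both, with 11 in almond and 7 in peach.

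The third class holds LINEs, TIR DNA transposons and consensus elements of other kinds. With length held alike, its differences were 2.49 points for CG, 3.91 for CHG and 0.466 for CHH. It was concentrated in the long elements, since at 5000 bp or more the CHG level was 61.5% ± 14.5 (SD, 1060 TEs) in almond and 69.3% ± 11.6 (SD, 1651 TEs) in peach. At 200 to 500 bp the CHG levels of 35.2% and 36.2% were 1.01 points apart, and 46.3% of the TEs in each genome were at 20% or less. The long elements made up 16.9% of this class in almond and 27.0% in peach. Their levels in the hybrid were 2.37 points apart in CHG.

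MITEs departed from the other classes. With length held alike, peach minus almond came to −3.45 points for CG, −1.03 for CHG and 5.18 for CHH. The sign turned with length, as MITEs of 200 to 500 bp were at −5.59 points in CG and those of 500 to 1000 bp at 5.22 points. In CHG these bins were at −2.54 and 5.38 points, and in CHH at 6.69 and −1.82 points, so that no context kept a single direction. With bins at the deciles of length the class values were −1.99 points for CG, 0.0439 for CHG and −0.771 for CHH, and between medians they were 0.854, 1.48 and 12.6 points. At 200 to 500 bp the means were 90.4% ± 13.2 (SD, 3208 MITEs) in almond and 84.8% ± 22.4 (SD, 2175 MITEs) in peach, but the median of peach was 0.393 points above that of almond. The hybrid differences for MITEs were −6.08 points for CG, −4.70 for CHG and 7.96 for CHH, from the 2 bins at 200 bp or more. In these bins the parental differences were −3.59, −1.14 and 5.23 points. Of the MITEs listed, 43.9% in almond and 42.5% in peach had a level, fewer than in the other classes. These shares were less alike within bins. A CG level was at hand for 36.1% in almond and 30.2% in peach at 200 to 500 bp. At 500 to 1000 bp it was at hand for 36.2% and 57.2%.

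The 2 genomes list MITEs partly under different names. Names such as almondfam11 and Prupefam5 carry a label of their genome, and their sequences were not compared. Whether names of a single genome stand for different families was thus not tested. Of the names, 105 stood in both genomes, each with the same consensus length in both, and they held 60.8% of the almond MITEs and 67.4% of the peach MITEs. For these names the mean CG level was 88.2% ± 16.6 (SD, 1803 MITEs) in almond and 91.0% ± 14.5 (SD, 2199 MITEs) in peach, and the difference was thus 2.83 points with peach higher. In CHG it was 2.56 points, and in CHH −1.61 points. MITEs under a name of 1 genome had means of 91.7% ± 10.7 (SD, 1948 MITEs) in almond and 76.0% ± 28.9 (SD, 808 MITEs) in peach in CG. In CHH those means were 23.9% and 29.7%. The direction of the class difference in CG and CHG was therefore that of the names found in a single genome.

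Prupefam5, listed for peach alone, was the most numerous of these, with 2251 copies of a median of 231 bp. Its 445 copies with a CG level had a mean of 61.3% ± 31.3 (SD), and 34.8% of them were at 50% or less. It held 153 of the 228 peach MITEs with a CG level under 50%. Its CHG mean was 35.9% and its CHH mean 13.9%, the latter far under the 44.1% of the peach MITEs with shared names. On single chromosomes its CG mean ranged from 43.7% on chromosome 4 (37 copies) to 72.5% on chromosome 5 (24 copies). Without Prupefam5 the CG mean of peach MITEs was 91.5% ± 13.8 (SD), and 1.45 points above that of almond. In CHG the difference without it was 3.22 points and in CHH 8.50 points. Leaving out a family of low levels, chosen after these were seen, had to raise the peach mean. No family was left out of almond, so these values describe the share of Prupefam5 in the peach mean and are no test.

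In almond, the names of a single genome were led by almondfam11, almondfam7 and almondfam16. The 1319 copies of almondfam11 held 1151 CG levels with a mean of 93.4% ± 3.28 (SD), and none of these was at 50% or less. Their CHG mean was 74.3% ± 9.06 (SD) and their CHH mean 20.6% ± 10.3 (SD), and 97.3% of them were at a CHH level of 50% or less. Of the copies of almondfam11, 1080 also overlapped a listed LTR retrotransposon by at least 1 base, which was the case for 102 of 1152 copies of almondfam7 and 131 of 1012 of almondfam16. The class label of almondfam11 is thus shared with LTR retrotransposons on most of its copies. Among all MITEs, 23.6% in almond and 19.3% in peach overlapped a listed LTR retrotransposon.

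**Figure D3:**
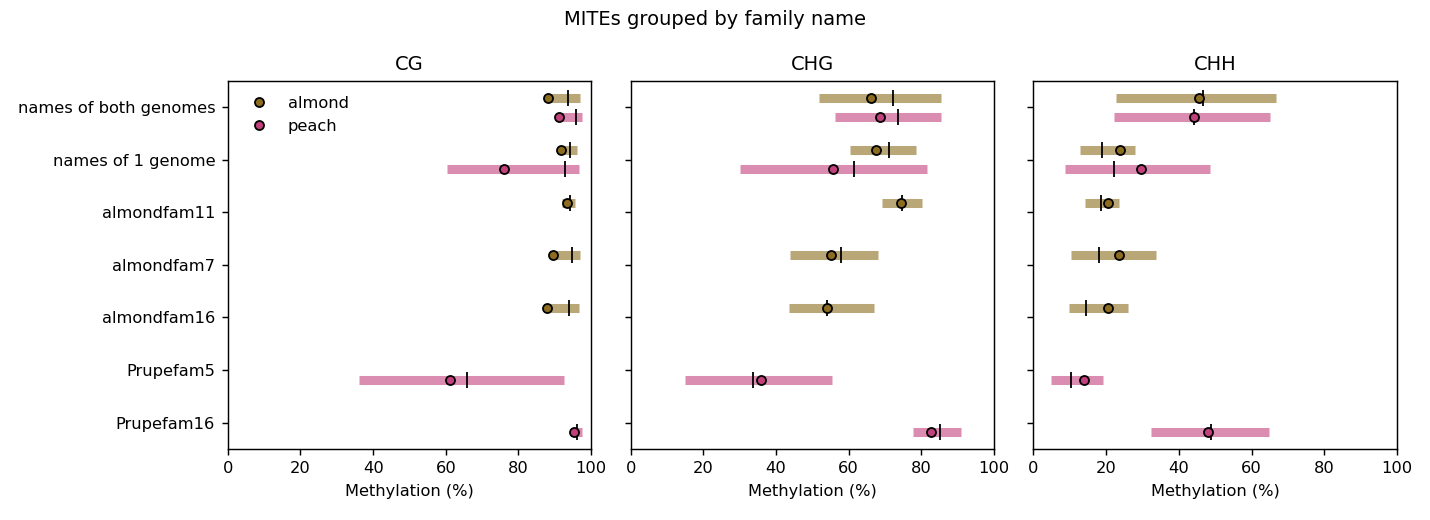
Methylation level (%) of MITEs grouped by family name, in almond and in peach. Circles are means, ticks medians and bars the quartiles over MITEs. Prupefam5 has a CG mean of 61.3% and spreads widely, while almondfam11 lies close to its mean of 93.4%.

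Copies that carry the same name in both genomes allow a comparison of like elements. Names of LTR retrotransposons and of MITEs were used if they had at least 10 copies with a level in each genome. The names of the third class were not used, as 926 stood in almond, 946 in peach and 53 in both, and they are numbered within each genome. In CG, 72 of 86 LTR retrotransposon names had a higher mean in peach, with a median difference of 1.89 points. For CHG the count was 75 of 95 names with a median of 4.31 points, and for CHH 77 of 109 with a median of 1.43 points. The MITE names leaned the same way, with 31 of 38 higher in peach in CG (median 1.95 points), 31 of 39 in CHG (median 6.0 points) and 32 of 50 in CHH (median 2.08 points). The family comparison thus put MITEs higher in peach in CG and CHG, unlike the class means.

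A minority of names lay far apart. Means at least 10 points apart were found for 3.49% of the LTR retrotransposon names for CG, 14.7% for CHG and 11% for CHH. For MITE names the shares were 7.89% for CG, 28.2% for CHG and 12% for CHH. Of the 14 LTR retrotransposon names so far apart in CHG, 12 were higher in peach, and of the 11 MITE names 10 were. In the hybrid, names with at least 10 copies on each genome had smaller median differences, which for LTR retrotransposons were 1.01 points (CG), 0.417 (CHG) and 0.310 (CHH). For MITE names they were 0.697, −0.290 and −0.364 points. Fewer names could be used in the hybrid, from 65 to 82 for LTR retrotransposons and from 20 to 31 for MITEs.

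**Figure D4:**
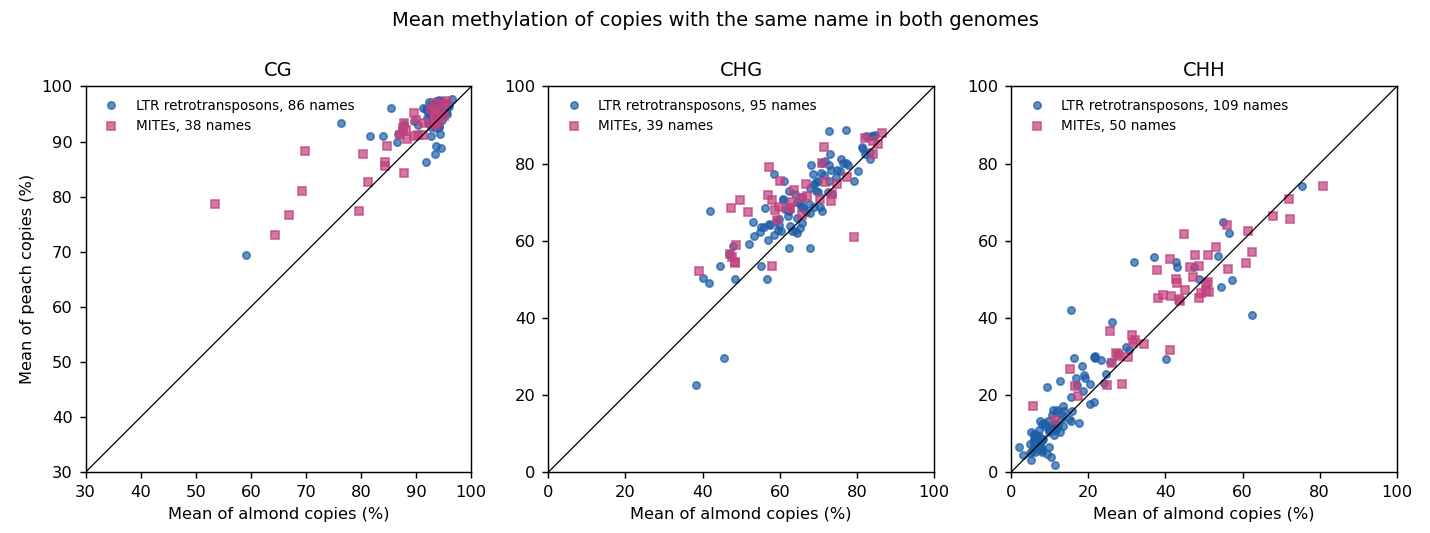
Mean methylation (%) of the copies with the same name, almond on the horizontal and peach on the vertical axis, for names with at least 10 copies with a level in each genome. Points above the line are higher in peach, which holds for 75 of 95 LTR retrotransposon names and 31 of 39 MITE names in CHG. The CG axes start at 30%.

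The 3 LTR retrotransposon families with most copies were Ppersica_LTRretrotransposon746, Ppersica_LTRretrotransposon5129 and Ppersica_LTRretrotransposon2044. All were higher in peach in CG and CHG. Ppersica_LTRretrotransposon746, of about 1.04 kb, had a CHG mean of 46.8% ± 12.2 (SD, 104 copies) in almond and 56.5% ± 11.5 (SD, 184 copies) in peach. Its CG means were 94.7% ± 2.11 and 97.4% ± 2.06, and its CHH means of 11.2% and 10.9% differed by less than their SD. Ppersica_LTRretrotransposon2044, of over 3 kb, had a CHG mean of 64.0% (91 copies) in almond and 72.0% ± 9.54 (SD, 163 copies) in peach. Ppersica_LTRretrotransposon4003 was named as 1 of the 3 families farthest above in peach in CHG, not for its number of copies. It was 10.6 points apart, at 62.4% ± 10.7 (SD, 33 copies) and 72.9% ± 4.20 (SD, 126 copies). In the hybrid the CHG means of Ppersica_LTRretrotransposon746, Ppersica_LTRretrotransposon2044 and Ppersica_LTRretrotransposon4003 were closer. On the almond and peach genomes they were at 49.4% and 51.9%, at 62.6% and 65.3%, and at 63.7% and 67.6%.

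Ppersica_LTRretrotransposon5129 was listed with 251 copies in peach and 29 in almond. It had a CG mean of 94.0% ± 1.93 (SD, 25 copies) in almond and 97.3% ± 1.14 (SD, 234 copies) in peach. Its CHG means were 65.8% ± 11.5 and 71.2% ± 8.07, and its CHH means 5.86% and 7.34%. The copies in peach were longer, with a median of 2891 bp against 1813 bp.

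Among LTR retrotransposon names with at least 20 copies in each genome, the 3 widest differences in CHH were found in short elements. Ppersica_LTRretrotransposon3150, with a median length of about 0.29 kb, had a CHH mean of 15.6% ± 15.3 (SD, 23 copies) in almond and 41.9% ± 34.2 (SD, 45 copies) in peach. Its CHG means were 58.4% ± 27.1 and 77.3% ± 22.2. These rest on few of its copies, 23 of 184 listed in almond and 45 of 378 in peach. The hybrid had CHH means of 14.1% and 28.1% on the 2 genomes, and in CHG 72.6% on the almond and 66.6% on the peach genome. Pdulcis26_LTRretrotransposon1765 was 22.6 points apart in CHH, at 31.9% ± 31.4 (SD, 23 copies) and 54.4% ± 23.9 (SD, 30 copies), but 0.0485 points apart in CG. Its hybrid CHH means were 29.4% on the almond and 61.6% on the peach genome. Of its copies, 15 of 37 in almond and 33 of 58 in peach overlapped a listed MITE.

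Pdulcis26_LTRretrotransposon549 was 11.4 points higher in peach in CHG and 11.1 points in CHH. Of its copies, 15 of 24 in almond but 0 of 34 in peach overlapped a listed MITE. In the opposite direction, Pdulcis26_LTRretrotransposon736 had a CHH mean of 10.3% ± 12.3 (SD, 20 copies) in almond and 3.83% ± 2.96 (SD, 28 copies) in peach. Ppersica_LTRretrotransposon576 had a CHG mean of 62.4% ± 13.7 (SD, 22 copies) in almond and 58.2% ± 11.1 (SD, 50 copies) in peach, and Ppersica_LTRretrotransposon71 a CHH mean of 57.3% ± 24.0 (SD, 25 copies) and 49.8% ± 26.7 (SD, 34 copies). In these last 2 families the difference was smaller than the SD of the copies in either genome. That was also so for families higher in peach. These were Ppersica_LTRretrotransposon746, Ppersica_LTRretrotransposon2044, Ppersica_LTRretrotransposon5129 and Ppersica_LTRretrotransposon3150 in CHG, and Pdulcis26_LTRretrotransposon1765 in CHH.

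Among MITE names with at least 20 copies in each genome, SE320500061 was the widest apart in CHG, at 47.3% ± 23.2 (SD, 20 copies) in almond and 68.6% ± 16.0 (SD, 25 copies) in peach. In the hybrid it was at 48.6% on the almond and 52.1% on the peach genome. SE320500016 followed, at 51.7% ± 28.3 (SD, 33 copies) and 67.4% ± 21.6 (SD, 53 copies). In CHH the widest was SE320500139, at 38.0% ± 25.2 (SD, 37 copies) and 52.4% ± 19.1 (SD, 41 copies). For SE320500016 in CHG and SE320500139 in CHH the difference was smaller than the SD of the copies in either genome.

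SE320200071 had the highest CHH levels of the 3 MITE names with most copies, and its mean was higher in almond. Its CHH mean was 72.3% ± 16.5 (SD, 247 copies) in almond and 65.6% ± 21.9 (SD, 163 copies) in peach, and in the hybrid 75.1% and 70.3%. Of its copies, 618 of 1000 in almond and 532 of 674 in peach overlapped a listed LTR retrotransposon. Pdulcis26_LTRretrotransposon307, nearly all of whose copies overlapped a MITE (390 of 413 in almond and 132 of 138 in peach), had CHH means of 75.4% ± 15.8 (SD, 134 copies) and 74.2% ± 16.5 (SD, 43 copies). These copies hardly ever had a CG level, with 26 of 1000 almond copies of SE320200071 and 3 of 413 of Pdulcis26_LTRretrotransposon307.

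A closer match was made for copies that may stand at the same place in both genomes. Copies of LTR retrotransposons and MITEs were paired if they had the same name, lengths within 5% of the longer, and lay on chromosomes of the same number in an order that increased along both. This gave 3944 pairs, 1263 of LTR retrotransposons and 2681 of MITEs, of which 70.4% kept their distance to the pair before within 20 kb in both genomes. Pairing in the same way between chromosomes of different numbers gave from 1581 to 1653 pairs, and 17.5% to 20.2% of them kept that distance. A level in both species was at hand for 1039 pairs for CG, 1070 for CHG and 1391 for CHH.

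In these pairs the peach copy was higher by a mean of 2.23 points for CG (SD 15.4), 5.68 for CHG (SD 17.1) and 1.85 for CHH (SD 13.4). It was the higher of the pair in 659 of 1039 pairs for CG, 696 of 1070 for CHG and 839 of 1391 for CHH. The medians were 1.54, 4.05 and 1.33 points. In the pairs between chromosomes of different numbers, the mean differences ranged from 1.79 to 3.40 points for CG, 2.54 to 5.43 for CHG and 0.274 to 2.28 for CHH, so that copies alike in name and length alone gave differences of like size, except that the CHG value of the collinear pairs lay above this range. More than 10 points lay between the copies in 20.7% of the pairs for CG, 42.2% for CHG and 32.3% for CHH. In CHG the peach copy was the higher by more than 10 points in 31.0% of the pairs and the almond copy in 11.2%. The mean was above 0 on 8 of 8 chromosomes in CHG (3.21 to 8.09 points) and CHH (0.749 to 3.49 points), and on 6 of 8 in CG (−1.70 to 5.38 points).

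Pairs of LTR retrotransposons and pairs of MITEs were both higher in peach. The CHG difference was 4.44 points (SD 14.2, 501 pairs) for LTR retrotransposons and 6.77 points (SD 19.2, 569 pairs) for MITEs. In CG it was 1.71 points for LTR retrotransposons and 2.70 points for MITEs. In the hybrid, pairs with a level on both genomes differed by 0.567 points in CG (673 pairs), 0.393 in CHG (681 pairs) and 0.440 in CHH (901 pairs).

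The levels of both copies followed each other. Across pairs Pearson's r was 0.690 for CG, 0.764 for CHG and 0.869 for CHH, and Spearman's rho was 0.454, 0.696 and 0.878. These are correlations across pairs that share names and lengths, not across samples. In the pairs between chromosomes of different numbers, which share names and lengths as well, r ranged from 0.0336 to 0.380 for CG, from 0.239 to 0.398 for CHG and from 0.468 to 0.570 for CHH. Of the 1039 pairs with CG levels, 838 had both copies over 80%. In 12 pairs the almond copy was over 80% and the peach copy at 50% or less, and in 14 pairs the reverse was found.

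**Figure D5:**
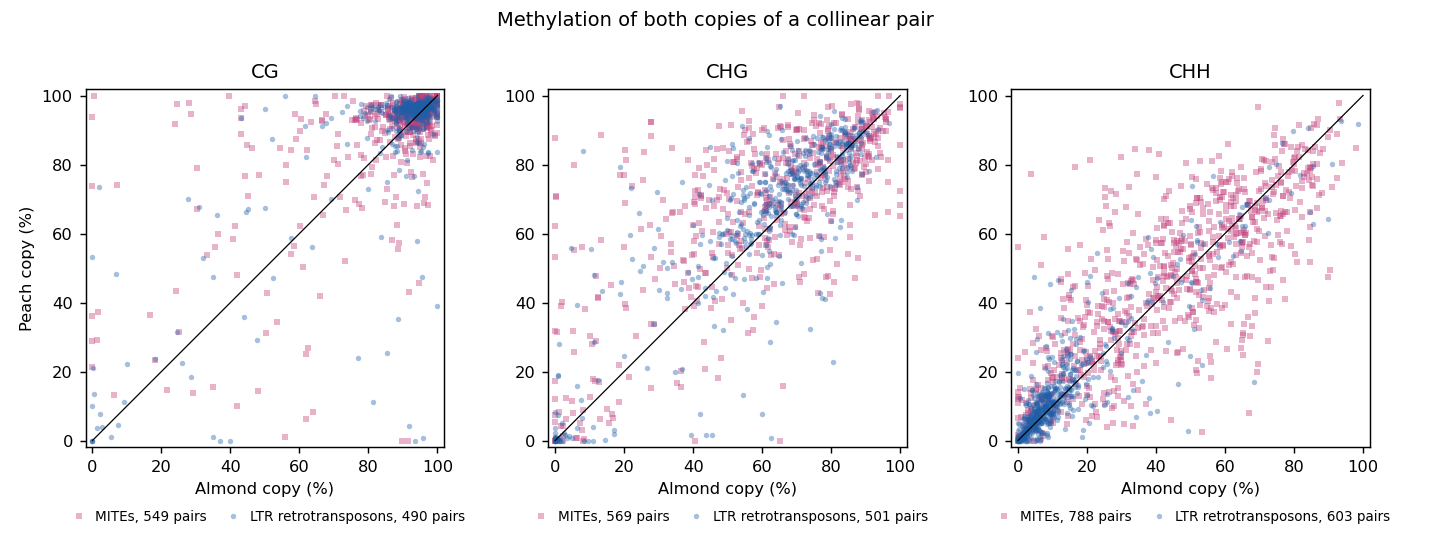
Methylation level (%) of the almond copy (horizontal) and the peach copy (vertical) of each collinear pair, in CG, CHG and CHH. Points on the line have equal levels. In CG most pairs lie over 80% in both species, and in CHG the pairs lie above the line in 696 of 1070 cases.

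Some long pairs stood far apart. The 3 pairs farthest in each direction and context were taken among pairs of at least 1000 bp, whose differences are a description. Of those described here, the first Ppersica_LTRretrotransposon1369 pair and those of Ppersica_LTRretrotransposon904, Ppersica_LTRretrotransposon2044 and Ppersica_LTRretrotransposon746 did not keep their distance to the pair before within 20 kb. A copy of Ppersica_LTRretrotransposon3327 on chromosome 2 (almond 18822905 to 18825747, peach 23092114 to 23094958, in the coordinates of the files) had a CG level of 85.5% in almond and 25.5% in peach. Its CHG level was 45.5% in almond and 1.54% in peach, and its CHH levels were 1.81% and 1.14%. In the hybrid the CG level was 52.5% on its almond side and 25.9% on its peach side. The almond level was thus the highest of the 4 in both CG and CHG.

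On chromosome 7, 2 copies of Ppersica_LTRretrotransposon1369 lay about 3 kb apart in both genomes and were both lower in peach. The first (almond 5185959 to 5187531, peach 5936864 to 5938428) had a CG level of 95.4% in almond and 47.3% in peach, and a CHG level of 73.9% and 32.3%. The second (almond 5188958 to 5190369, peach 5939856 to 5941266) had a CG level of 94.0% and 57.8%, and a CHG level of 54.4% and 13.3%. On both genomes the hybrid levels of these copies in CG, from 76.2% to 91.1%, lay between those of the parents.

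In the other direction, a 6.4 kb copy of Ppersica_LTRretrotransposon4332 on chromosome 6 (almond 25910527 to 25916953, peach 27158905 to 27165328) was listed at 0% in the 3 contexts in almond. In peach it had a CG level of 53.1%, with 0.914% in CHG and 0.513% in CHH. A copy of Ppersica_LTRretrotransposon904 on chromosome 1 was at 6.83% in CG in almond and 48.3% in peach, with CHG under 1% in both. In peach both thus had an intermediate CG level with CHG under 1%. A copy of Ppersica_LTRretrotransposon778 on chromosome 6 (almond 14539597 to 14540911, peach 14766280 to 14767599) differed in CHG alone, with 94.6% in CG in both species and 43.6% in almond against 1.58% in peach in CHG.

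The CHG difference of a Ppersica_LTRretrotransposon2044 copy on chromosome 3 ran the other way, with 36.7% in almond and 74.8% in peach beside CG levels of 90.01% and 95.1%. In CHH the farthest apart among pairs of at least 1000 bp was one of Ppersica_LTRretrotransposon746 on chromosome 7, of 1047 bp in almond and 1048 bp in peach. Its distance to the pair before differed by 91813 bp between the genomes, so that its place is less sure. It was at 9.42% in almond and 45.2% in peach, and the hybrid was at 7.99% on the almond and 45.9% on the peach genome. A CHH level of that size was unlike the family as a whole, whose peach mean was 10.9% ± 8.32 (SD, 188 copies).

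Copies with a partner were methylated differently from those without. LTR retrotransposons in pairs had lower CG levels than the others in both genomes, by −3.68 points in almond and −4.90 in peach, and lower CHG levels, by −6.85 and −4.72 points, but at 1000 to 2000 bp the CHG levels of those in pairs were higher, by 4.07 points in almond and 2.18 in peach. They were shorter, with a median of 332 bp in both genomes against 922 bp and 818 bp, and within bins of length the CG difference was still below 0 in each bin, from −7.37 to −2.39 points in almond and from −8.87 to −3.30 in peach. For MITEs the sign differed between genomes, with −4.42 points in almond and 3.09 points in peach in CG. Prupefam5, which has no name in almond, is among the unpaired MITEs of peach.

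The share of a window of 1 Mb taken by listed TEs differed between the genomes, since 40% to 59% was reached in 8 almond windows and 33 peach windows, and 60% or more in 6 windows, all of peach. Of the almond TEs 12.1% lie on scaffolds outside the 8 chromosomes and could not enter a window, against 18 TEs in peach. Among LTR retrotransposons in windows with less than 20% of TEs, the CHH mean was 18.6% in almond and 22.5% in peach. With 20% to 39% it was 11.7% and 13.8%, and with 40% to 59% it was 8.65% and 9.45%. LTR retrotransposons were also longer in denser windows, with medians of 507.5, 951 and 1234 bp in almond and 416, 778 and 1538 bp in peach. With length held alike, the CHH difference was 3.30 points in the windows with least TEs, 1.81 in the next and 0.847 at 40% to 59%, and without it 3.93, 2.09 and 0.798 points. In CG the difference lay between 2.49 and 3.12 points in these groups. In the 6 peach windows with 60% or more, which had no almond counterpart, the mean CHG level of LTR retrotransposons was 53.9% (691 copies) against 67.7% in the group below.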

How the data were processed

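DNA methylation of leaf TEs was measured in almond, peach and their hybrid, with 6 bisulphite libraries. The deposited percentages were made by the authors, who aligned reads with Bismark 0.19.1 to the genome of the parent, kept unique best alignments under a relaxed mismatch limit and cytosines over a minimum coverage, and computed a percent of methylation per annotated TE with SeqMonk. Both libraries of a genotype were joined. A base that reads as T in the plant but C in the reference counts as unmethylated, and this was not separated. The name of the genome build is not given in the sources used here.

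TEs were put in length bins with edges at 200, 500, 1000, 2000 and 5000 bp, each bin without its upper edge. The difference held alike for class and length is the mean of the differences of cells with at least 30 TEs in each genome, weighted by their number of TEs. Families named are the 3 with most copies and the 3 farthest apart in each direction per class and context, among names with at least 20 copies with a level in each genome, of which a part is described, and MITE names of a single genome were chosen after their values were seen. MITE names are library entries, since the family number written after the entry differs between the genomes. Copies joined in pairs were chained by the longest run that increases in both genomes. The members and lists were chosen with earlier results of these data known. Alternatives were TEs with levels in all contexts or in the hybrid, subsets by placement, value and length, medians, other bins and weights, and other limits for names and pairs. Leaving out overlapping TEs, and using names of both genomes alone, were added after the data were seen, as were the values by density with length held alike and the medians of the own type. Of the listed TEs, 37.0% in almond and 37.2% in peach overlap another listed TE, often as an LTR retrotransposon and a MITE on the same bases. The count tables of RNA were not used, and no genome sequence was used here. Python 3.11.15, pandas 2.3.3, numpy 2.4.6, scipy 1.17.1 and matplotlib 3.10.9 were used, and the scripts were tested on simulated data.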

Additional observations from a re-analysis of the deposited data

How the results depend on the processing

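No paired analysis was possible because the percentages join both libraries of a genotype and carry no replicate number, and for the same reason no library could be left out. Of 189 values under alternative settings for 21 results, 152 kept their direction and moved by less than 1 percentage point. For LTR retrotransposons as a class this held under each alternative run. Their values ranged from 2.65 to 3.42 points in CG, from 3.29 to 4.05 in CHG and from 0.487 to 1.79 in CHH. In CHH the main value was 1.05 points, so that a limit of 1 point says little there. For all TEs with class and length held alike, TEs of at least 500 bp gave 3.24 points in CG and 0.383 in CHH, medians gave 3.93 in CHG and 2.66 in CHH, and decile bins gave 0.509 in CHH. MITEs depended on the setting. Their CG difference was 5.22 points with MITEs of at least 500 bp, 0.854 between medians, −1.99 with decile bins, −1.63 weighted by length, 0.732 with equal weights, 1.33 without overlapping TEs and 2.74 with names of both genomes. In CHG the same settings gave 5.38, 1.48, 0.0439, 0.719, 1.99, 3.70 and 3.04 points. In CHH they gave −1.82 points at 500 bp or more, 12.6 between medians, −0.771 with decile bins, 2.70 with equal weights, 1.33 without overlapping TEs and −0.783 with names of both genomes, beside 7.40 for MITEs with levels in all contexts and 11.4 for those with a hybrid level. For the third class, leaving out overlapping TEs gave 1.08 points in CG and 2.72 in CHG, and medians gave 5.30 in CHG. Among names of both genomes, LTR retrotransposons with at least 20 copies gave 5.36 points in CHG, and MITEs gave 4.58 in CG and 7.57 in CHG at 500 bp or more, and 7.47 in CHG with the median of a family. Pairs of identical length gave 3.79 points in CG and pairs of at least 500 bp 3.51, and the median over pairs was 4.05 in CHG. The cause of these changes was not tested. The depth is unknown, so a level that rests on few reads cannot be told from one that rests on many.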

Other observations

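The published annotation was held only in part, with 1998 rows for each genome. This part gave a superfamily for 977 LTR retrotransposon names, and the class of part of the LINEs and TIRs. With length held alike, copia retrotransposons were 4.39 points higher in peach in CHG and gypsy retrotransposons −0.393 points. LTR retrotransposons listed as unclassified were a larger group than either, with 3919 copies in almond and 3879 in peach. They were 4.95 points higher in peach in CHG. At 5000 bp or more the gypsy copies were higher in almond in CHG, with 72.3% ± 11.3 (SD, 202 copies) in almond and 68.0% ± 13.4 (SD, 486 copies) in peach. The copia copies of that length had 63.8% ± 14.3 (SD, 125 copies) in almond and 72.7% ± 13.7 (SD, 133 copies) in peach. In the hybrid, the peach genome minus the almond genome was −7.32 points for these gypsy copies and 5.02 for the copia copies. In CG the long gypsy copies were 4.30 points higher in peach, so CG and CHG did not go together there. TIR transposons were 2.64 points higher in peach in CG and 4.03 in CHG, while LINEs were at −0.781 and 0.892 points.

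Where this annotation, held in part, gave the structure of an LTR retrotransposon, full elements had a CHG mean of 66.9% ± 16.5 (SD, 118 copies) in almond and 74.1% ± 15.2 (SD, 129 copies) in peach. For truncated elements the means were 65.0% and 65.8%, and for solo LTRs, the single repeats left by recombination, 64.4% and 65.7%. In CHH the full elements were 0.0161 points apart, at 11.3% in both, while solo LTRs had 20.04% ± 19.5 (SD, 328 copies) and 22.9% ± 19.5 (SD, 347 copies).

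The study used 47 copies as representatives of TE families in the leaf RNA, and each was found in the lists by name and position. A representative was the genomic copy most similar to an assembled transcript, and need not be the copy transcribed. Where the study named a single expressed copy, it was the representative for LTR_3 and LTR_124 but not for LTR_81 and LTR_141. Of the 44 with a CG level, 35 were below the median of their class and bin in their own genome, as were 36 of 44 in CHG and 34 of 45 in CHH. LINEs and TIRs stand here against the mixed class of other TEs, and LINEs as a whole had low CHG levels, with medians of 29.7% in almond and 21.5% in peach. Set against TEs of their own type and bin, 11 of 16 LINEs were below the median in CG, 14 of 16 in CHG and 14 of 17 in CHH, and of the 16 TIRs 13, 14 and 15. Of the 12 LTR retrotransposons with a level, 9 were below in CG, 7 in CHG and 6 in CHH, so that the counts for CHG and CHH came from LINEs and TIRs. Over the 44 representatives with a CHG level the median was 16.5%. The LINEs had a median CHG level of 2.26%. The TIRs of both genomes together had medians of 89.7% in CG and 2.37% in CHG. By genome, the TIR median in CHG was 1.52% in almond (6 copies) and 23.6% in peach (10 copies). A CG level under 50% was found in 7 copies. In almond these were LINE_12532 and LINE_1880, both at 0%, and TIR_12852 at 19.99%, and in peach LINE_11223 at 0.53%, LINE_11334 at 1.14%, LINE_11441 at 7.02% and LINE_9417 at 46.2%. In the same order, the other copies of these families had CG means of 51.8%, 24.1% and 13.0% in almond. In peach they had 25.4%, 31.3%, 64.0% and 33.3%. These means rest on 4 copies (LINE_1880) to 37 copies (LINE_11441). TIR_12852 and LINE_9417 were above the mean of their other copies. In both genomes the representative copies of LTR retrotransposons were over 50% in CG.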
